A study of Mus musculus with 6 samples.

Results

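The 10 genes described here belong to antibodies, to the cells that secrete them or to their transport, centred on IgA, the antibody class of mucosal surfaces. All were followed in bulk RNA-seq of antral stomach from mice without the mucin Muc6. They were chosen by name for their roles, with earlier results of these data known. They are 5 antibody constant regions (Igha, Ighm, Igkc, Iglc1 and Iglc2), the joining chain Jchain, 3 genes of antibody-secreting cells (Mzb1, Tnfrsf17 and Pou2af1) and the epithelial receptor Pigr. All 10 were found among the 34866 genes of the deposited table. The libraries fall into 3 Muc6 -/- samples (knockout) and 3 Muc6 +/+ samples (wild type) of gastric mucosa from the antrum, the part of the stomach next to the duodenum. The labels used here give no strain, age, sex or treatment, nor how the Muc6 allele was made. They do not say whether the samples of a genotype are different animals, and the p-values rest on the spread among those samples, part or all of which could be technical.

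IgA is made by plasma cells, the antibody-secreting descendants of B cells, which in mucosa lie beneath the epithelium. The J chain joins IgA or IgM units into polymers. The polymeric immunoglobulin receptor, encoded by Pigr, binds these polymers at the basal side of epithelial cells, carries them across in vesicles and is cleaved at the luminal side, which releases secretory IgA. Pigr transcription is known to respond to interferon, tumour necrosis factor, interleukin 4, interleukin 17 and microbial signals. In bulk tissue, fewer cells of a type and less RNA per cell cannot be told apart.

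The constant regions of IgA and of the light chains are printed here so that they, and the close lambda copies among them, can be told apart. Each line gives the start of the coding exons, 120 bases 5′ to 3′ on the coding strand, from GENCODE release M21 on GRCm38. Igha lies at chr12:113260117-113260236 on the minus strand, Igkc at chr6:70726435-70726554 on the plus strand, Iglc1 at chr16:19061952-19062071, Iglc2 at chr16:19198734-19198853 and Iglc3 at chr16:19065562-19065681, these last all on the minus strand. Igha encodes the alpha heavy chain that makes an antibody IgA, Igkc the kappa light chain, and Iglc1, Iglc2 and Iglc3 the lambda light chains. Iglc3 is shown as the close copy of Iglc2. Capitals in Iglc1 and Iglc3 mark bases that differ from Iglc2 in an alignment.
Igha: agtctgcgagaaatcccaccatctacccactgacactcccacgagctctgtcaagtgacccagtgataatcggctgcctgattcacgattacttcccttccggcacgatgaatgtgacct
Igkc: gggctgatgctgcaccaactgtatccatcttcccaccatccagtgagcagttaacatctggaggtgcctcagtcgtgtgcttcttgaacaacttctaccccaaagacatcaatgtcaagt
Iglc1: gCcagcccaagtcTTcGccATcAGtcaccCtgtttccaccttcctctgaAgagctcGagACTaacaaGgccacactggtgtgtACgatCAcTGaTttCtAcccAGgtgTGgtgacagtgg
Iglc3: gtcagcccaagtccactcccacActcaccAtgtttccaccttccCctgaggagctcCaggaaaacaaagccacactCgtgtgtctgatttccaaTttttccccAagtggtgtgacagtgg
Iglc2: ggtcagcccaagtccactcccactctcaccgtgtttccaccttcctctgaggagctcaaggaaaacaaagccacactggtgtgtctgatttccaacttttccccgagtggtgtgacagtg
Over the aligned coding region Iglc2 and Iglc3 differ at 11 of 314 bases, an identity of 96.5%, so their reads are hard to assign and their levels are uncertain. Iglc1 differs from Iglc2 at 79 of 313 bases (74.8% identity) and from Iglc3 at 77 of 313 (75.4%).

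Libraries held 19839799 to 21354029 estimated counts. Values are given as CPM, counts per 1e6 of the library size after TMM scaling, which evens out differences in RNA composition. Muc6 had 1, 0 and 0 counts in the knockout libraries, against 7295, 7158 and 8795 counts in the wild-type libraries. Of 9 antral markers, Muc5ac, Tff1, Gkn1, Gkn2, Gast and Muc6 were lower in the knockout and Tff2, Pdx1 and Aqp5 were higher, and every one other than Muc6 had counts in all 6 libraries. The 4 Y-linked genes summed to 136, 132 and 139 CPM in the knockout, against 6.47, 5.85 and 6.73 CPM in wild type, so effects of sex and of genotype cannot be told apart in any comparison here. Knockout replicate 1 and wild-type replicate 1 stood apart from the other libraries on the second principal component (18.2% of the variance), at 35.6 and 47.6, with the others between -32.7 and -13.5. The muscle gene Myh11 had 231, 4731 and 3674 counts in the knockout, against 878, 5885 and 14128 counts in wild type, so both libraries numbered 1 held the least of it in their genotype. Results for the members are therefore given with and without these libraries.

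Transcripts of IgA, of the kappa chain, of the J chain and of the epithelial receptor were all higher in the knockout antrum. Igha averaged 242 ± 149 CPM in the knockout and 0.145 ± 0.251 CPM in wild type, Igkc 157 ± 76.6 and 0.0381 ± 0.0330 CPM, Jchain 69.2 ± 26.5 and 0.245 ± 0.0942 CPM, and Pigr 1972 ± 955 and 101 ± 27.2 CPM in the same order of genotypes (SD, n = 3 each). Of the 10 genes, 8 passed the filter on low counts and all 8 rose by edgeR's quasi-likelihood test at an adjusted p (Benjamini-Hochberg) of 0.05. Among the 14017 genes tested, 38.4% passed that threshold, 19.3% as higher and 19.2% as lower in the knockout. Igha, Ighm, Igkc, Iglc1, Iglc2 and Jchain reached the filter only through the knockout libraries, where such a gene had to be higher, so the count of 8 is not read against that share. Pigr and Pou2af1 reached it in both genotypes. Every member other than Tnfrsf17 was higher in each knockout library than in any wild-type library, 9 of 10. Such a separation was seen in 28.2% of all genes tested, and for the same reason, and since Mzb1 was not tested, nothing is read from the comparison. Without both libraries numbered 1, 7 of the 8 were still called, Igha being the exception, and Pigr had a log2 fold change of 3.65 (SE 0.20, adjusted p = 4.40e-05, edgeR), Jchain 7.79 (SE 0.82, adjusted p = 0.0061) and Pou2af1 1.60 (SE 0.39, adjusted p = 0.0105).

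**Figure D1:**
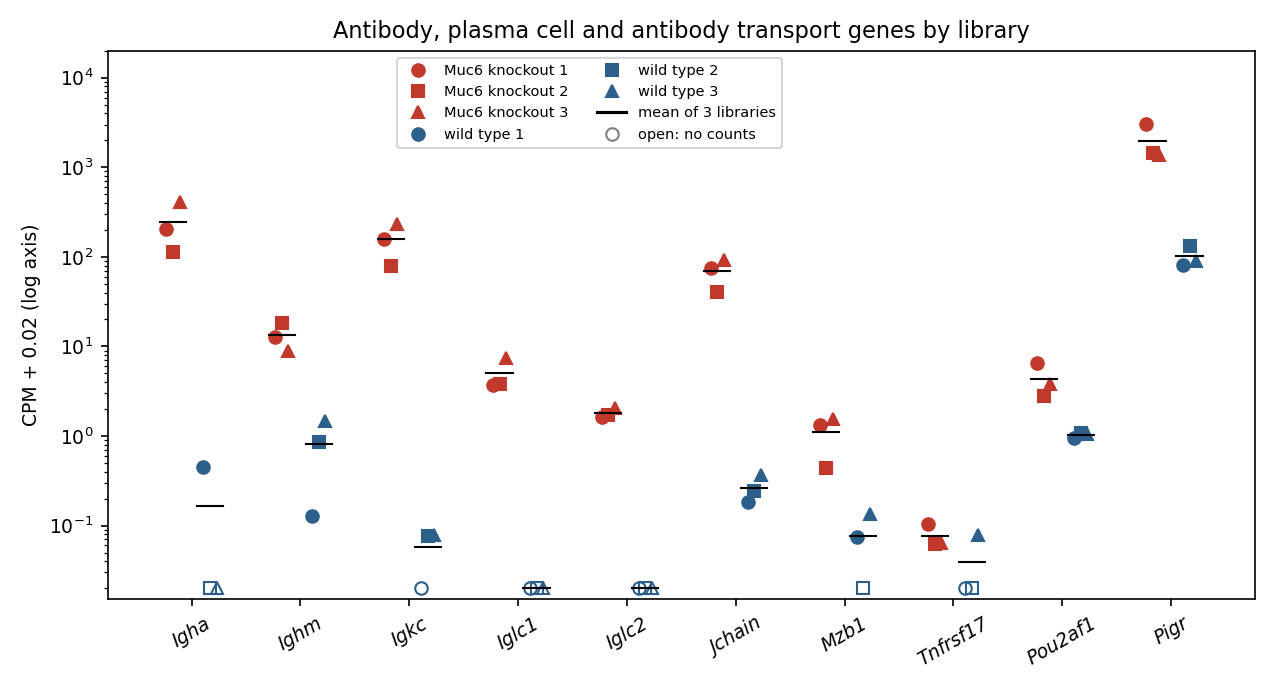
CPM of each of the 10 genes on a log axis, with a small constant added so that libraries without counts (open points) can be drawn; knockout libraries are left of wild-type libraries, with 1 point per library and a bar at the mean of 3. The knockout points lie above all wild-type points for every gene except Tnfrsf17, where no library has more than 2 counts.

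Among the heavy chains, Igha (ENSMUSG00000095079.6, GRCm38 chr12:113254830-113260236) had 207, 114 and 406 CPM in the knockout libraries, from 4873, 2750 and 9303 counts, against 0.435, 0 and 0 CPM in the wild-type libraries, from 8, 0 and 0 counts. The knockout libraries were all high with a 3.55-fold range among them, and the wild-type counts came from replicate 1 alone. Summed over libraries, 16926 counts in the knockout stood against 8 in wild type, a scaled ratio of 1603 with an exact 95% interval of 813 to 3713 that covers counting error only. The fitted log2 fold change was 10.61 (SE 1.04, adjusted p = 0.00168, edgeR). Without both libraries numbered 1, the wild-type libraries left have no Igha counts, and the adjusted p was 0.117 with edgeR.

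Ighm (ENSMUSG00000076617.9, chr12:113418558-113422730) encodes the mu heavy chain, made by B cells before class switching and by IgM plasma cells, whose polymers Pigr also binds. It had 12.8, 18.4 and 8.81 CPM in the knockout, against 0.109, 0.844 and 1.45 CPM in wild type, and the groups did not overlap. Its summed counts had a scaled ratio of 17.1 (12.5 to 23.8), and the log2 fold change was 4.06 (SE 0.73, adjusted p = 0.00684, edgeR). Within the knockout its order was the reverse of that of Igha: replicate 2 had the most Ighm and the least Igha, and replicate 3 the least Ighm and the most Igha.

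The class makeup of heavy-chain constant counts follows from these values. IgA made up 92.1%, 85.4% and 97.4% of 5289, 3221 and 9547 heavy-chain counts in the knockout libraries. In wild type the totals were 11, 15 and 26 counts, of which IgA was 8 of 11 in replicate 1 (72.7%, exact 95% interval 39% to 94.0%), 0 of 15 in replicate 2, which allows a share of up to 20%, and 0 of 26 in replicate 3, which allows up to 11.5%. The mean IgA share was 91.7 ± 6.05% in the knockout and 24.2 ± 42% in wild type (SD, n = 3 each), with an exact two-sided permutation p of 0.1, the smallest that 3 against 3 can give. IgM made up 5.71%, 13.7% and 2.12% of the knockout counts, against 18.2%, 100% and 96.2% of the few wild-type counts, and these values did not overlap. The share in wild-type replicate 1 rests on 2 of 11 counts. Its exact 95% interval, 2.28% to 51.8%, includes the shares of knockout replicates 1 and 2. IgG classes were 2.08%, 0.81% and 0.37% of heavy-chain counts in the knockout, and 1 of 11, 0 of 15 and 0 of 26 counts in wild type.

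**Figure D2:**
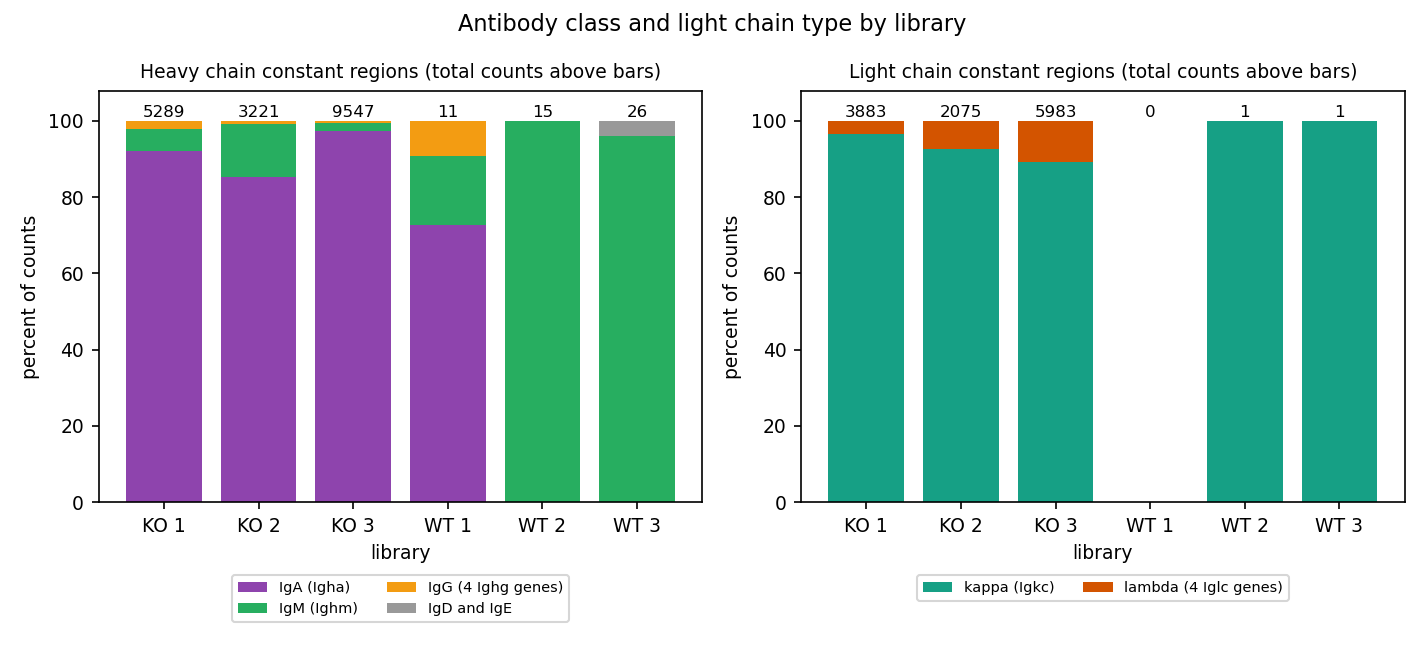
Percent of constant-region counts in each library, by heavy-chain class (left panel) and light-chain type (right panel), with knockout bars left of wild-type bars and total counts above each bar. IgA fills 85.4% to 97.4% of the knockout heavy-chain bars, while the wild-type bars rest on 11, 15 and 26 heavy-chain counts and 0, 1 and 1 light-chain counts.

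Other heavy-chain classes were rare. Ighg2b, an IgG class, had 51, 15 and 16 counts in the knockout and none in wild type, at least 20.7-fold higher against a floor of 3 counts over the wild-type group (adjusted p = 0.0102, edgeR). It was the 1 gene of 8 other constant regions that rose, with 2 of the 8 tested. Having no wild-type counts, it could reach the filter only through the knockout, so nothing is read from that count. Ighg1 had 40, 8 and 15 counts in the knockout, against 1, 0 and 0 in wild type, a scaled ratio of 47.7 (8.26 to 1914). Ighd, the delta chain of naive B cells, had 4, 3 and 7 counts in the knockout and 0, 0 and 1 in wild type. Ighe, the IgE chain, had no counts in any library.

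Light chains pair with every heavy-chain class. Igkc (ENSMUSG00000076609.2, chr6:70726435-70726966) had 159, 80.0 and 233 CPM in the knockout, from 3747, 1924 and 5343 counts, against 0, 0.0562 and 0.0580 CPM in wild type, from 0, 1 and 1 counts. The knockout was higher in every library, with a scaled ratio of 4172 (1155 to 34450) and an adjusted p of 4.43e-04 with edgeR. Iglc1 (ENSMUSG00000105906.1, chr16:19061618-19062071) had 3.70, 3.78 and 7.50 CPM in the knockout and no counts in wild type, at least 88.4-fold higher (adjusted p = 0.00128, edgeR). Iglc2 (ENSMUSG00000076937.3, chr16:19198396-19200351) had 1.61, 1.70 and 2.05 CPM in the knockout and no counts in wild type, at least 31.8-fold higher (adjusted p = 0.00198, edgeR). Its range within the knockout, 1.27-fold, was the narrowest of the 8 genes tested. Its near copy Iglc3 had 11, 19 and 421 counts in the knockout and none in wild type, so knockout replicate 3 held nearly all of them, and it did not pass the test (adjusted p = 0.113, edgeR). Without that library its adjusted p was 0.0276. Kappa made up 96.5%, 92.7% and 89.3% of light-chain constant counts in the knockout (92.8 ± 3.60%, SD, n = 3). Wild-type replicates had 0, 1 and 1 light-chain counts, too few for a share.

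Variable segments, the parts of an antibody gene that differ between clones, were seen almost only in the knockout. Of 113 heavy-chain variable segments in the table, 85 had counts in the knockout and 1 in wild type, with totals of 935, 500 and 1832 counts in the knockout, against 0, 0 and 1 in wild type. Of 100 kappa variable segments, 82 had counts in the knockout and 0 in wild type, with totals of 1227, 632 and 1884 counts in the knockout. The most abundant heavy-chain segment took 9.73% of these counts in knockout replicate 1 (Ighv9-3), 11.0% in replicate 2 (Ighv10-1) and 35.3% in replicate 3 (Ighv6-3). The most abundant kappa segment took 8.80% (Igkv10-96), 11.4% (Igkv1-110) and 28.8% in the same libraries. Knockout replicate 3, with the most Igha, thus had the most uneven use of both kinds of segment, and a different segment led in each library. Many variable segments are near copies, so counts of a single segment are uncertain. Of lambda variable counts, which numbered 150, 110 and 570 in the knockout, against 0, 4 and 0 in wild type, Iglv1 took 88.7%, 88.2% and 90.5% in the knockout.

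Jchain (ENSMUSG00000067149.6, chr5:88519809-88527891) had 75.9, 40.0 and 91.6 CPM in the knockout, from 1786, 963 and 2101 counts, against 0.163, 0.225 and 0.348 CPM in wild type, from 3.11, 4 and 6 counts. The groups were far apart in every library. Its scaled ratio was 283 (165 to 531), and its log2 fold change was 8.11 (SE 0.47, adjusted p = 1.99e-04, edgeR). Igha counts were 2.73, 2.86 and 4.43 times the Jchain counts in the knockout libraries, and 1.30, 1.43 and 1.74 times the Igkc counts, so these 3 genes kept the same order in each. Against Ighm the Igha count was 16.1, 6.22 and 46.1 times as high, a wider spread.

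Pou2af1 encodes a coactivator of octamer-binding factors that B lineage cells use at antibody promoters. It had 6.46, 2.74 and 3.79 CPM in the knockout, against 0.924, 1.07 and 1.04 CPM in wild type. All knockout libraries were higher, with replicate 1 highest, and the log2 fold change was 2.09 (SE 0.42, adjusted p = 0.00744, edgeR). Mzb1 encodes an endoplasmic reticulum protein of marginal zone B cells and plasma cells that helps antibody assembly. It had 31, 10 and 35 counts in the knockout, against 1, 0 and 2 in wild type, a scaled ratio of 19.2 (6.32 to 95.1). It fell below the filter and was not tested with all libraries. With no filter its adjusted p was 0.00881 with edgeR. Mzb1 shares 695 exon bases on the same strand with another annotated gene, so its counts may include reads of that gene. Tnfrsf17 encodes BCMA, a survival receptor of plasma cells. It had 2, 1 and 1 counts in the knockout, against 0, 0 and 1 in wild type, with overlapping groups and a scaled ratio of 3.03 (0.300 to 149). It too fell below the filter, and with no filter its adjusted p was 0.545 with edgeR. A difference in Tnfrsf17 was not detectable at this depth.

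Pigr (ENSMUSG00000026417.13, chr1:130826684-130852249) had 3074, 1462 and 1382 CPM in the knockout, against 80.9, 132 and 90.4 CPM in wild type. It was well measured in both genotypes, with 31681 to 72344 counts in the knockout and 1489 to 2347 in wild type, and the groups did not overlap. Knockout replicate 1 had the most, 2.22 times the lowest knockout library. The log2 fold change was 4.29 (SE 0.41, adjusted p = 8.39e-04, edgeR). Of the 8 genes tested, Pigr and Pou2af1 were the ones whose highest knockout library was replicate 1, while Igha, Igkc, Jchain, Iglc1 and Iglc2 were highest in replicate 3.

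The 150 bases upstream of the annotated Pigr start, at chr1:130826534-130826683 on the plus strand of GRCm38.p6 (RefSeq), are printed because Pigr is the member made by epithelial cells and its start lies in the promoter table. Capitals mark an E-box, the letters CACGTG, at 71 to 66 bases upstream.
Pigr: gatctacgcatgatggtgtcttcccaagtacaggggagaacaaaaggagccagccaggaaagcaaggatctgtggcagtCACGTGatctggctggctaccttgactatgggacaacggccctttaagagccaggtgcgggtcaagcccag
Jchain, Pigr, Pou2af1 and Tnfrsf17 were in the table of 32851 RefSeq promoters, and 4 motifs were searched on both strands of the 250 bases upstream. CACGTG was present in 6.02% of all promoters and, among these 4 genes, in Pigr. The interferon-type motif GAAANNGAA was present in 7.13% of all and in Tnfrsf17. The octamer ATGCAAAT (1.6% of all) and the NF-kappaB-type GGGNNTTCC (4.98% of all) were in none of the 4 windows, which says only that these letters are not there. No motif overlapped another in the Pigr window.

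**Figure D3:**
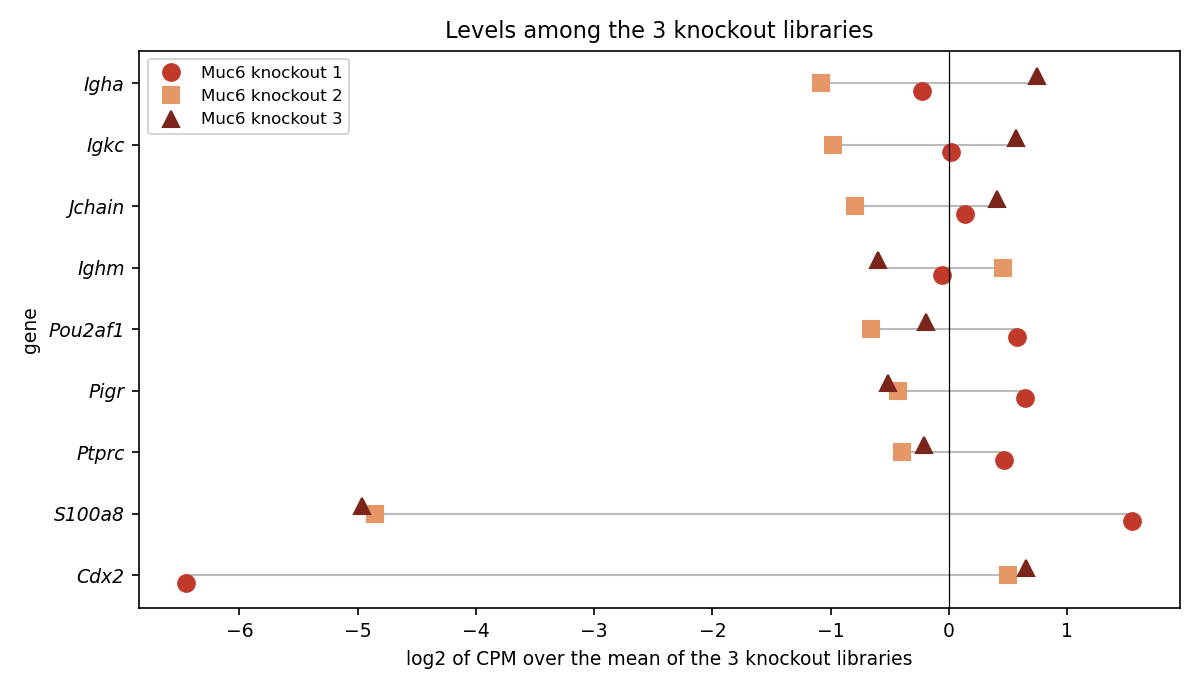
Log2 of CPM over the mean of the 3 knockout libraries for 6 members, the leukocyte gene Ptprc, the neutrophil gene S100a8 and the intestinal gene Cdx2, with 1 marker per library. Igha, Igkc and Jchain are lowest in replicate 2 and highest in replicate 3, Ighm runs the other way, Pigr, Pou2af1, Ptprc and S100a8 are highest in replicate 1, and Cdx2 is far lowest there.

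Igha and Jchain differed from wild type by more than Pigr did, while Ighm, with a log2 fold change of 4.06 (SE 0.73), stood close to Pigr at 4.29 (SE 0.41). The log2 ratio of Igha to Pigr counts, with 0.5 added to each, was -3.89, -3.68 and -1.77 in the knockout, against -7.45, -12.20 and -11.61 in wild type. The means were -3.11 ± 1.17 in the knockout and -10.42 ± 2.59 in wild type (SD, n = 3 each), with an exact two-sided permutation p of 0.1, the smallest possible here. The wild-type ratios rest on 8, 0 and 0 Igha counts and on the added constant. The near-absence of Igha there fixes the separation, so nothing is read from that p. The log2 ratio of Jchain to Pigr was -5.34, -5.19 and -3.91 in the knockout, against -8.73, -9.03 and -7.91 in wild type, again without overlap. On a scale of CPM per kilobase of merged exon, the knockout means were 490 ± 237 for Pigr, 296 ± 144 for Igkc, 90.8 ± 55.8 for Igha, 27.5 ± 10.5 for Jchain, 11.0 ± 4.79 for Iglc1, 7.07 ± 2.54 for Ighm, 2.92 ± 0.376 for Iglc2, 1.70 ± 0.751 for Pou2af1, 0.894 ± 0.486 for Mzb1 and 0.0696 ± 0.0301 for Tnfrsf17 (SD, n = 3). Neighbours in that order such as Pigr and Igkc, or Iglc1 and Ighm, lay within their spread. In wild type Pigr was at 25.1 on the same scale, and the next was Ighm at 0.425. Igha transcripts of 1100 and 2540 bases merge to 2668, so its level per length depends on which form is made.

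Other genes of plasma cells moved less than the antibody genes. Of 18 listed, 13 were tested, 5 rose, 2 fell and 6 did not pass, with a median log2 fold change of 0.32, against 0.02 over all genes tested. Of all genes tested, 19.3% were called higher and 19.2% lower. In this and later lists, some genes with few wild-type counts reached the filter only through the knockout. No count of a list is therefore read against those shares. Sdc1, the plasma cell surface marker syndecan-1, which epithelium also makes, had 370, 319 and 280 CPM in the knockout, against 227, 161 and 170 CPM in wild type (log2 fold change 0.79, SE 0.17, adjusted p = 0.00926, edgeR). Itgb7, a subunit of the gut-homing integrin, had 2.21, 1.75 and 1.96 CPM in the knockout, against 0.543, 0.675 and 0.522 CPM in wild type (adjusted p = 0.0118, edgeR). Tnfrsf13b, the receptor TACI, had 17, 17 and 18 counts in the knockout, against 2, 4 and 2 in wild type (adjusted p = 0.0174, edgeR), and its adjusted p was 0.0575 to 0.0709 without knockout replicate 2, knockout replicate 3 or wild-type replicate 3. Prdm1, the plasma cell regulator Blimp-1, which other cells make too, fell (log2 fold change -0.66, adjusted p = 0.0325, edgeR) and lost its call in 10 of 18 alternatives. Xbp1, a secretory-cell factor, had 246, 231 and 261 CPM in the knockout, against 277, 269 and 256 CPM in wild type, and did not pass (adjusted p = 0.364, edgeR), with a log2 fold change of -0.12 that turned to 0.30 (adjusted p = 0.036) under scaling by total counts. Irf4 had 4, 6 and 10 counts in the knockout, against 0, 1 and 3 in wild type, and was not tested. When libraries were scaled by total counts alone, 9 plasma cell genes rose and 0 fell.

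Markers of B cells before the plasma stage were few. Of 15 listed, 4 were tested and 2 rose, and the list summed to 11.2, 8.19 and 11.5 CPM in the knockout, against 3.53, 4.33 and 6.61 CPM in wild type. Cd79a, a signalling chain of the B cell receptor, had 22, 13 and 27 counts in the knockout, against 4, 0 and 0 in wild type (adjusted p = 0.0317, edgeR), a call that 5 of the leave-outs of 1 library ended. It reached the filter only through the knockout libraries. Spib, a factor of B cells that some epithelial cells also make, had a log2 fold change of 1.36 (adjusted p = 0.0448, edgeR), which 5 such leave-outs ended. Ms4a1, which encodes CD20, had 2, 5 and 1 counts in the knockout, against 11, 5.4 and 1 in wild type. Of 12 genes of the germinal centre, where B cells mature, and of class switching, 6 were tested and 2 rose. Bcl6, a germinal centre regulator also made by other cells, had 9.35, 13.0 and 13.2 CPM in the knockout, against 3.75, 4.56 and 5.45 CPM in wild type (adjusted p = 0.00402, edgeR), and S1pr2, a receptor that keeps B cells in the germinal centre, had a log2 fold change of 1.47 (adjusted p = 0.00613, edgeR).

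Of 14 signals for homing and survival of IgA plasma cells, 12 were tested, 6 rose and 0 fell, with a median log2 fold change of 1.44. Over all genes tested, 19.3% were called higher and 19.2% lower. Il6, Madcam1 and Tnfsf13b reached the filter only through the knockout libraries, so the count is not read against that share. Tgfb1, whose product directs switching to IgA, had 29.3, 20.4 and 15.6 CPM in the knockout, against 2.93, 3.15 and 4.23 CPM in wild type (log2 fold change 2.66, SE 0.28, adjusted p = 6.99e-04, edgeR). Tnfsf13, which encodes APRIL, a ligand of BCMA and TACI, had 30.6, 21.6 and 18.2 CPM in the knockout, against 11.7, 8.66 and 8.29 CPM in wild type (log2 fold change 1.30, SE 0.23, adjusted p = 0.00499, edgeR). Il6, a cytokine of plasma cell survival, had 60, 49 and 13 counts in the knockout and none in wild type, at least 30.8-fold higher (adjusted p = 0.00736, edgeR). Cxcr4, a homing receptor, rose by a log2 fold change of 1.58 (adjusted p = 0.00378, edgeR). Madcam1, the vessel ligand of the gut-homing integrin, had 25, 33 and 38 counts in the knockout, against 0, 2 and 4 in wild type (adjusted p = 0.0122, edgeR; 0.0629 without wild-type replicate 2). Tnfsf13b, which encodes BAFF, rose with an adjusted p of 0.0396 (edgeR), but this was 0.0549 to 0.127 without knockout replicate 2 or 3 or wild-type replicate 1 or 2. Ccl28, a chemokine that draws IgA plasma cells to mucosa, had 30.1, 15 and 8.46 CPM in the knockout, against 9.34, 9.34 and 11.8 CPM in wild type, with overlapping groups (adjusted p = 0.192, edgeR; 0.0335 without knockout replicate 3). Ccl25, its counterpart in the small intestine, had 2.34, 9.23 and 26.8 CPM in the knockout, against 3.42, 3.71 and 2.73 CPM in wild type (adjusted p = 0.114, edgeR; 0.0089 without knockout replicate 1).

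Of 21 genes in pathways known to control Pigr, 18 were tested, 10 rose and 2 fell, with a median log2 fold change of 0.53. The shares over all genes tested were 19.3% higher and 19.2% lower. Tnf reached the filter only through the knockout libraries. Il4ra, a receptor chain for interleukin 4, had 134, 72.8 and 69.5 CPM in the knockout, against 14.1, 15 and 19 CPM in wild type (log2 fold change 2.52, SE 0.29, adjusted p = 0.00127, edgeR). Like Pigr, it was highest in knockout replicate 1. Tnfrsf1a, a receptor for tumour necrosis factor, rose by a log2 fold change of 0.91 (adjusted p = 0.0012, edgeR) and Il17ra, a receptor for interleukin 17, by 1.08 (adjusted p = 0.00181, edgeR). Tnf itself had 129, 28 and 11 counts in the knockout, against 0, 3 and 0 in wild type, a scaled ratio of 42.4 (14.3 to 208), with an adjusted p of 0.0235 by edgeR that was 0.0557 to 0.0786 without any 1 wild-type library. The genes that fell were Tlr4, a receptor for bacterial lipopolysaccharide (log2 fold change -0.95, adjusted p = 0.00558, edgeR), and Ifngr1, an interferon gamma receptor chain (-0.43, adjusted p = 0.0364, edgeR). Ifngr1 lost its call without any 1 knockout library or wild-type replicate 1 or 2 (adjusted p 0.0519 to 0.0977) and stood at -0.01 under scaling by total counts. Il17a had 30, 4 and 0 counts in the knockout and none in wild type, and Ifng had 4, 0 and 0 counts and none. With total-count scaling, 14 of these genes rose and 1 fell.

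Of 16 genes of transcytosis, the vesicle traffic that carries the receptor across the cell, all were tested, 1 rose and 6 fell, with a median log2 fold change of -0.40. The shares over all genes tested were 19.3% higher and 19.2% lower. Exoc6, a subunit of the exocyst tether, had 16.8, 18.6 and 19.3 CPM in the knockout, against 34.3, 47.1 and 43.1 CPM in wild type (log2 fold change -1.19, SE 0.15, adjusted p = 0.00118, edgeR). Vps35, of the retromer sorting complex, fell by 1.04 on the log2 scale (adjusted p = 0.00154, edgeR), and Yes1, a kinase linked to receptor traffic, fell by 1.10 (adjusted p = 0.00161, edgeR). Rab5a, of early endosomes, fell by 0.57 (adjusted p = 0.00338, edgeR). Fcgrt, the heavy chain of the IgG transport receptor FcRn, was the gene that rose, at 10.7, 11.3 and 16 CPM in the knockout, against 4.07, 4.95 and 7.19 CPM in wild type (adjusted p = 0.0112, edgeR). Under total-count scaling, which shifts the median log2 fold change of all genes to 0.43, 5 of these genes rose and 4 fell, and Rab5a no longer passed (adjusted p = 0.205, edgeR).

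**Figure D4:**
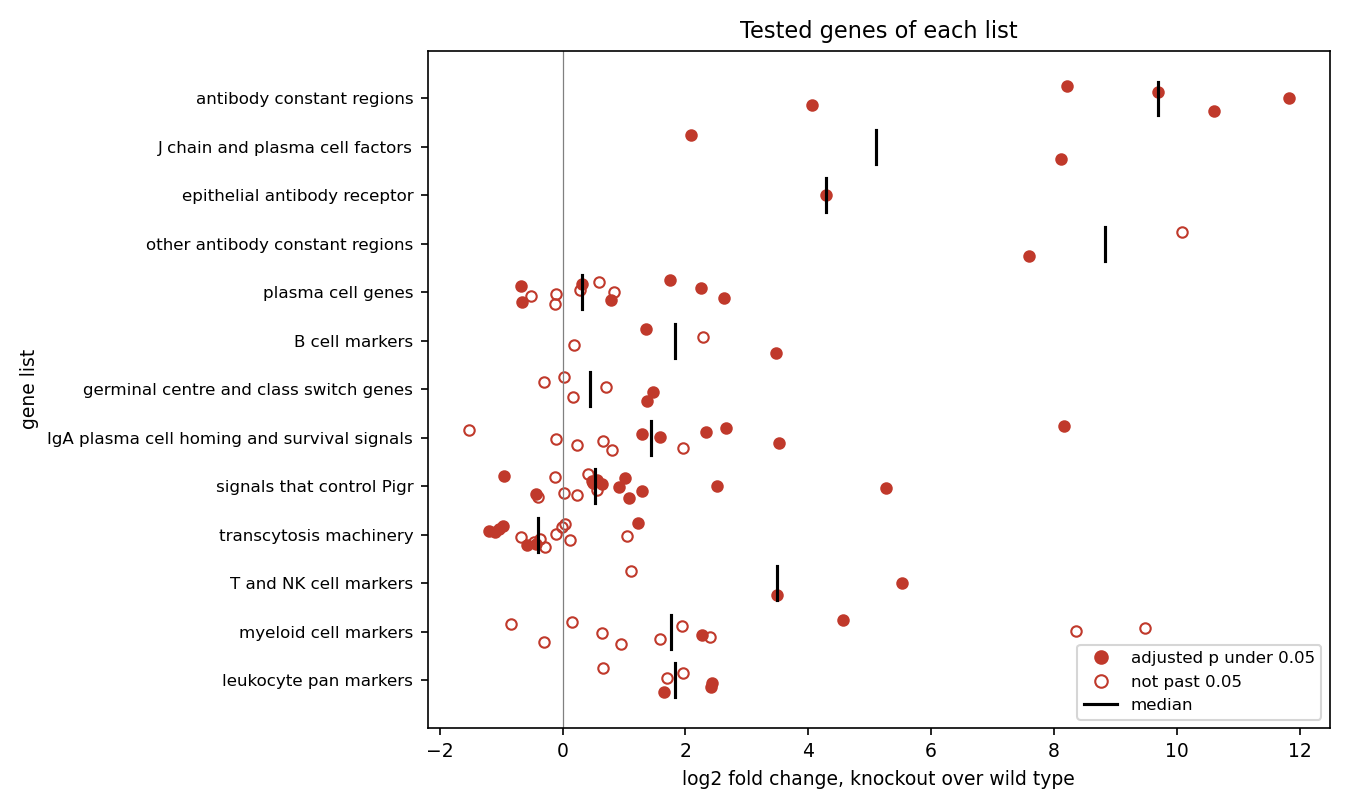
Log2 fold change of knockout over wild type for each tested gene, 1 row per list, with genes past an adjusted p of 0.05 (edgeR) filled and the median of each list as a black bar. The tested members lie between 2.09 and 11.82 and the transcytosis genes mostly below 0; fitted values of genes without wild-type counts depend on the prior count, and with those at their lower bounds the median of the constant regions is 6.47 in place of 9.69.

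Markers of other immune cells were called higher in part, and most of the myeloid markers did not pass the test. Pan-leukocyte markers, of which 3 of 6 tested rose and 0 fell, summed to 65.0, 42.4 and 48.4 CPM in the knockout, against 8.37, 17.9 and 23.1 CPM in wild type. Laptm5, a lysosomal protein of blood cells, had 11.3, 10.5 and 8.72 CPM in the knockout, against 0.761, 2.02 and 2.84 CPM in wild type (log2 fold change 2.44, SE 0.44, adjusted p = 0.00514, edgeR), and kept its call in all 18 alternatives. Coro1a, an actin-binding protein of leukocytes, had 7.65, 5.90 and 6.32 CPM in the knockout, against 0.326, 0.844 and 2.55 CPM in wild type (adjusted p = 0.0242, edgeR), and lost its call without any 1 knockout library or wild-type replicate 2 (adjusted p 0.051 to 0.0972). Ptprc, which encodes CD45, had 14.6, 8.02 and 9.12 CPM in the knockout, against 1.25, 3.66 and 5.16 CPM in wild type (log2 fold change 1.66, SE 0.50, adjusted p = 0.0369, edgeR), and its call was lost without any 1 knockout library or without wild-type replicate 2, with adjusted p values up to 0.105. T and NK cell markers, of which 3 of 14 were tested and 2 rose (Trbc2 and Cd4, Cd4 not without knockout replicate 3 or wild-type replicate 2), summed to 4.72, 8.60 and 9.29 CPM in the knockout, against 0.924, 1.01 and 1.28 CPM in wild type. Cd3e had 5, 5 and 3 counts in the knockout, against 1, 0 and 0 in wild type. Myeloid markers, of which 12 of 13 were tested and 2 rose (Itgax and Csf3r, each losing its call in several leave-outs), summed to 344, 100 and 93.2 CPM in the knockout, against 20.5, 76.3 and 87.3 CPM in wild type. The neutrophil gene S100a9 had 2108, 38 and 45 counts in the knockout, against 0, 0 and 2 in wild type, so knockout replicate 1, with the most Pigr, held nearly all of them. Ly6g, another neutrophil marker, had 31, 0 and 0 counts in the knockout and none in wild type. Trbc2, Cd4, Csf3r, Itgax and Coro1a reached the filter in every library of the knockout only. Nothing is therefore read from these counts of genes that rose, beside the 19.3% called higher over all genes tested. The part of these immune cells in the members' levels was not tested.

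The sum of small-intestinal markers was ordered differently from Igha and Pigr across the knockout libraries. Of 11, 8 were tested, 3 rose and 1 fell, and they summed to 808, 2103 and 2573 CPM in the knockout, against 1276, 1198 and 1212 CPM in wild type. Fabp2, a fatty acid binding protein of enterocytes, was the gene that fell, at 19.4, 87.0 and 202 CPM in the knockout, against 679, 677 and 754 CPM in wild type (log2 fold change -2.78, adjusted p = 0.049, edgeR), and it held most of the wild-type sums. Its call was lost in 8 of 18 alternatives, with adjusted p values up to 0.146. Cdx2, an intestinal regulator, had 2, 252 and 268 counts in the knockout, against 4, 4 and 6 in wild type, and Muc2, the goblet cell mucin, had 5, 792 and 1869 counts in the knockout, against 18, 14 and 4 in wild type. Knockout replicate 1 held less Cdx2 (in CPM) than any wild-type library, from few counts. Its Muc2, at 0.212 CPM, was close to the lowest wild-type value, 0.232 CPM. Sis, from the same list, had 22, 348 and 639 counts in the knockout, against 0, 1 and 2 in wild type. It was thus higher in knockout replicate 1 than in wild type, as was Vil1 (355 CPM, against 276, 221 and 164 CPM in wild type). Alpi, intestinal alkaline phosphatase, had 7255, 31494 and 27843 counts in the knockout, against 545, 341 and 345 in wild type, and was raised in replicate 1 too. The part of intestinal cells in the members' levels was not tested. Stroma and muscle markers, of which all 9 were tested and 1 rose (Pecam1), summed to 329, 881 and 751 CPM in the knockout, against 156, 1219 and 2402 CPM in wild type. Pan-epithelial markers, of which 4 of 8 rose and 1 fell, summed to 11312, 11961 and 11384 CPM in the knockout, against 14618, 11757 and 11535 CPM in wild type. That sum joins genes that moved in opposite directions. Krt8 fell, with a mean of 5268 CPM in the knockout and 7474 CPM in wild type. Epcam rose, with means of 737 and 330 CPM in the same order, as did Krt18, Cldn7 and Cldn3. The part of epithelial content in the Pigr level was not tested.

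Profiles most like those of Igha and Pigr were sought among 12370 genes by the root mean square difference of log2(CPM + 1), centred on each gene's mean over the 6 libraries. Closest to Igha were Gp2 (0.766), Mmp10 (0.847), Reg1 (0.899), Muc13 (0.940) and Mug1 (1.02). Gp2, which encodes a glycoprotein known from pancreas and the M cells that sample gut contents, had 49.96, 98.9 and 185 CPM in the knockout, against 0, 0.112 and 0.0580 CPM in wild type. Closest to Pigr were Lcn2 (0.236), Olfr1033 (0.243), Hba-a2 (0.279), Mcpt2 (0.328) and Mmp3 (0.344). The added 1 CPM shrinks the difference between genotypes for genes near 0 in wild type, so their likeness depends on it. Fitted log2 fold changes were 6.74 for Lcn2 and 6.48 for Mmp3, against 4.29 for Pigr. Lcn2, which encodes lipocalin 2, an iron-binding defence protein of inflamed epithelium and neutrophils, had 28.5, 9.68 and 11.8 CPM in the knockout, against 0, 0.450 and 0 CPM in wild type, and like Pigr was highest in knockout replicate 1. Mcpt2, a mast cell protease, had 420, 249 and 223 CPM in the knockout, against 10.1, 10.3 and 10.4 CPM in wild type. Hba-a2, an alpha globin gene, has a near-identical copy, so its level is uncertain. These likenesses describe 6 libraries in which the difference between genotypes is most of the profile.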

How the data were processed

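Gene expression was measured by bulk RNA-seq in 3 Muc6 -/- and 3 Muc6 +/+ samples of antral gastric mucosa. Per the labels' protocols, libraries were made with a kit that selects polyadenylated RNA and keeps the strand. The authors deposited estimated counts per gene (28.8% to 34.25% of non-zero values are not whole). The submitters' processing notes name the mm10 build. The sources used here do not give the aligner, counting program or use of strand, so overlapping or near-identical genes may share reads.

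Counts were rounded and 14017 genes that passed filterByExpr were tested with edgeR 4.0.16 in R 4.3.3 (TMM, robust quasi-likelihood, false discovery rate 0.05). The steps were tested on simulated data. Symbols matched GENCODE M21 for 34582 of 34866 genes. One count was worth 0.0416 to 0.0436 CPM in the knockout and 0.0543 to 0.058 CPM in wild type, and the floor was 3 counts over a group. Intervals (exact, 95%) and floors cover counting error only. DESeq2 1.42.0 and limma-voom 3.58.1 were alternatives.

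The members and gene lists were chosen with earlier results of these data known. Named genes were all members, up to 4 called genes per list with the smallest adjusted p (where no gene of a list was called, the 2 lowest p), and the 5 profiles nearest Igha and Pigr. Myh11, Ighg1, Ighd, Ighe, Iglc3, Xbp1, Irf4, Ms4a1, Madcam1, Tnfsf13b, Ccl28, Ccl25, Tnf, Tlr4, Ifngr1, Il17a, Ifng, Fcgrt, Cd3e, S100a9, Ly6g, Cdx2, Muc2, the variable segments and the antral markers outside the rule were added after their values were seen.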

Additional observations from a re-analysis of the deposited data

How the results depend on the processing

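Directions of the 8 tested members held in all 144 comparisons with other settings (scaling, filter, tool, threshold and libraries left out), and 1 call was lost. That was Igha without both libraries numbered 1, at a log2 fold change of 15.37 (SE 2.93, adjusted p 0.117, edgeR), where the wild-type libraries left had no counts. Changes of threshold reuse the same fold changes, so direction could not change there. Members almost without wild-type counts could hardly reverse under any setting. Members called numbered 7 there and 9 with no filter and without knockout replicate 2 or any 1 wild-type library, where Mzb1 was also tested. At a false discovery rate of 0.01, 2665 genes were called. Leaving out 1 library gave 3342 called genes (without wild-type replicate 2) to 6009 (without wild-type replicate 1), against 5386 with all. Total-count scaling gave 5730 higher and 1091 lower genes, 84.0% higher, and moved the median log2 fold change to 0.43. Same-numbered libraries deviated together only in part (correlations 0.255, 0.0848 and 0.178), and knockout replicate 2 correlated best with wild-type replicate 3 (0.293), so the numbers were not taken as pairs. With a replicate block, 5069 genes and the same 8 members were called, Iglc3 passed (adjusted p 0.00482) and Ptprc did not (adjusted p 0.0826). Among 67 other genes, 21 lost their call in 98 of 1194 comparisons in all, and no called gene reversed. The cause was not tested. Members with few wild-type counts are limited by depth, and their ratios by the intervals given.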
